A study of Mus musculus with 4 samples.

Results

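The axon guidance families are secreted, membrane-anchored or transmembrane ligands and their cell-surface receptors. Their mRNAs were measured here in mouse epidermis on 4 arrays. A gene belonged to the set if its platform symbol was that of a semaphorin of classes 3 to 7, a plexin, a neuropilin, an Eph receptor, an ephrin, a netrin, a Slit or a Robo. This naming rule used no measured value and gave 63 of the 19938 named genes: 20 semaphorins, 9 plexins, 2 neuropilins, 13 Eph receptors, 8 ephrins, 4 netrins, 3 Slits and 4 Robos. Each gene was read by 1 probe set, the one with the highest mean over the 4 arrays, and 4 of the 63 had more than 1.

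These families were first described for how they attract or repel growing axons, and epithelia use them as well. Semaphorins signal through plexins, and most secreted class 3 semaphorins need a neuropilin as co-receptor. Ephrins are bound to membranes, A-class ephrins by a lipid anchor and B-class ephrins by a transmembrane segment, so that Eph signalling needs contact between cells. Netrins act through DCC and UNC5 receptors, and Slits through Robos. In skin, Sema3a made by keratinocytes is known to repel the nerve fibres that enter the epidermis, and EphA2 with its ligand ephrin-A1 is known to act in keratinocyte differentiation.

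The arrays compare 2 transgenic mouse lines, one with noggin and one with BMP4 driven by the K14 promoter, which is active in basal keratinocytes. BMP4 is a secreted bone morphogenetic protein, and noggin is a secreted antagonist that binds BMPs. Epidermis was cut by laser from sections of hairless hindpaw skin, in 8 to 10 strips per animal, and RNA from 3 animals was pooled for each array, which gave 2 noggin arrays and 2 BMP4 arrays from 6 animals per line. The sources used here do not give the strain, the age or the cells that the transgenes reach. Skin without a transgene was not analysed here.

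Values are log2 probe set intensities, and a difference is the noggin mean minus the BMP4 mean on that scale. Replicate arrays are pools of different animals, so each SD is a spread between pools. A probe set's level depends on its probes, so levels are not ordered between genes. Basal and suprabasal keratinocyte markers lay between 8.30 and 13.4 on the arrays, Krt14 at 12.2 to 12.4 and Krt10 at 13.3 to 13.4. The transcripts of noggin and BMP4 themselves were read as Nog at 5.95 ± 0.048 in the noggin line against 6.09 ± 0.062 in the BMP4 line and Bmp4 at 7.81 ± 0.063 against 8.13 ± 0.14 (SD, n = 2 each). It is unknown here whether these probe sets lie within the transgenes, so neither gene checks the labels. In bulk tissue, fewer cells of a type and less RNA per cell cannot be told apart.

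Signal above a background reference was found for most guidance genes. The reference was the 95th percentile of 1027 olfactory receptor genes, which are not known for expression in epidermis, and it lay between 5.66 and 5.72 on the 4 arrays. Of the 63 guidance genes, 44 (69.8%) were above it on all 4 arrays, 8 on some and 11 on none, and 59.9% of all named genes were above it on all 4. By family, all 4 arrays were above it for 17 of 20 semaphorins, 6 of 9 plexins, both neuropilins, 7 of 13 Eph receptors, 6 of 8 ephrins, 3 of 4 netrins, 1 of 3 Slits and 2 of 4 Robos. The 11 genes above it on no array were Epha3, Epha5, Epha6, Epha7, Ephb1, Efna2, Efnb3, Plxnb3, Sema4f, Sema6c and Robo3. This level is a description of signal and no detection call, and with the 99th percentile of the same genes 29 of the 63 lay above it on all 4 arrays.

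**Figure D1:**
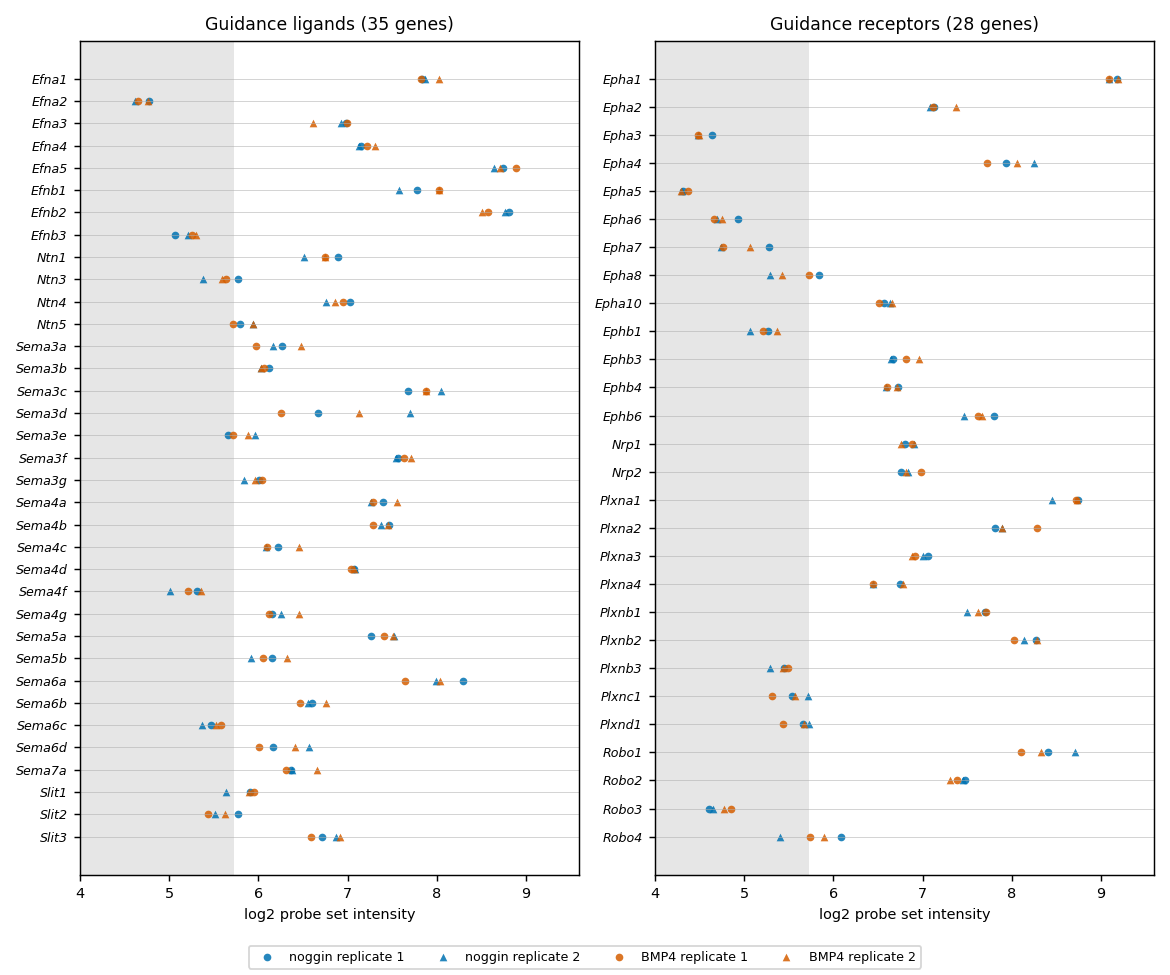
Log2 probe set intensity (horizontal axis) of the 35 guidance ligands (left) and 28 guidance receptors (right) on each array, with circles for replicate 1 and triangles for replicate 2, blue for noggin and orange for BMP4. The grey area ends at 5.72, the highest of the 4 reference levels from olfactory receptor genes, and most genes have all 4 points to its right and close together.

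Group means of the guidance genes mostly lay close together in noggin and BMP4 epidermis. In limma, 0 of the 63 passed an adjusted p of 0.05, as did 0% of all 35556 probe sets tested. Adjusted p over the 63 lay between 0.865 and 1 (limma). At an unadjusted p below 0.05 limma gave 2 of the 63 (3.17%), Efnb1 and Efnb2, against 4.28% of all named genes. The groups did not overlap for 13 of the 63 (20.6%), 5 with both noggin arrays higher and 8 with both lower, against 33.6% of all named genes, 15.7% and 17.9% by direction. The median difference was -0.014 over the 63 and -0.0064 over all named genes. Of the 63, 39 (61.9%) had a lower noggin mean, against 52.1% of all named genes. The median turned to 0.0086 when noggin replicate 2 was left out and to 0.026 when BMP4 replicate 2 was, so the list as a whole had no direction that held with each array left out.

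For most guidance genes, at least 1 gap between the pools of a line was as large as the difference between the lines. The median absolute difference between the lines was 0.096 for the 63 genes, while the median gap between the 2 arrays of a line was 0.15 in noggin and 0.15 in BMP4. Over all named genes these medians were 0.087, 0.13 and 0.12. A gap is taken between 2 single arrays and a difference between 2 means. Gaps therefore tend to be the larger measure even where the lines do not differ. The difference was larger than both gaps for 11 of the 63 (17.5%), against 21.9% of all named genes. Only Sema3d, Efnb1, Robo1 and Sema6a had group means at least 0.25 apart, 6.35% of the 63 against 12.1% of all named genes, and none reached 1. The 95% interval of the difference lay between -1 and 1, that is within a 2-fold change either way, for 62 of the 63 genes, the exception being Sema3d. It lay between -0.5 and 0.5 for 42 of the 63. Of all 19938 named genes, 19088 and 13529 had intervals within these 2 bounds, shares close to those of the guidance genes.

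**Figure D2:**
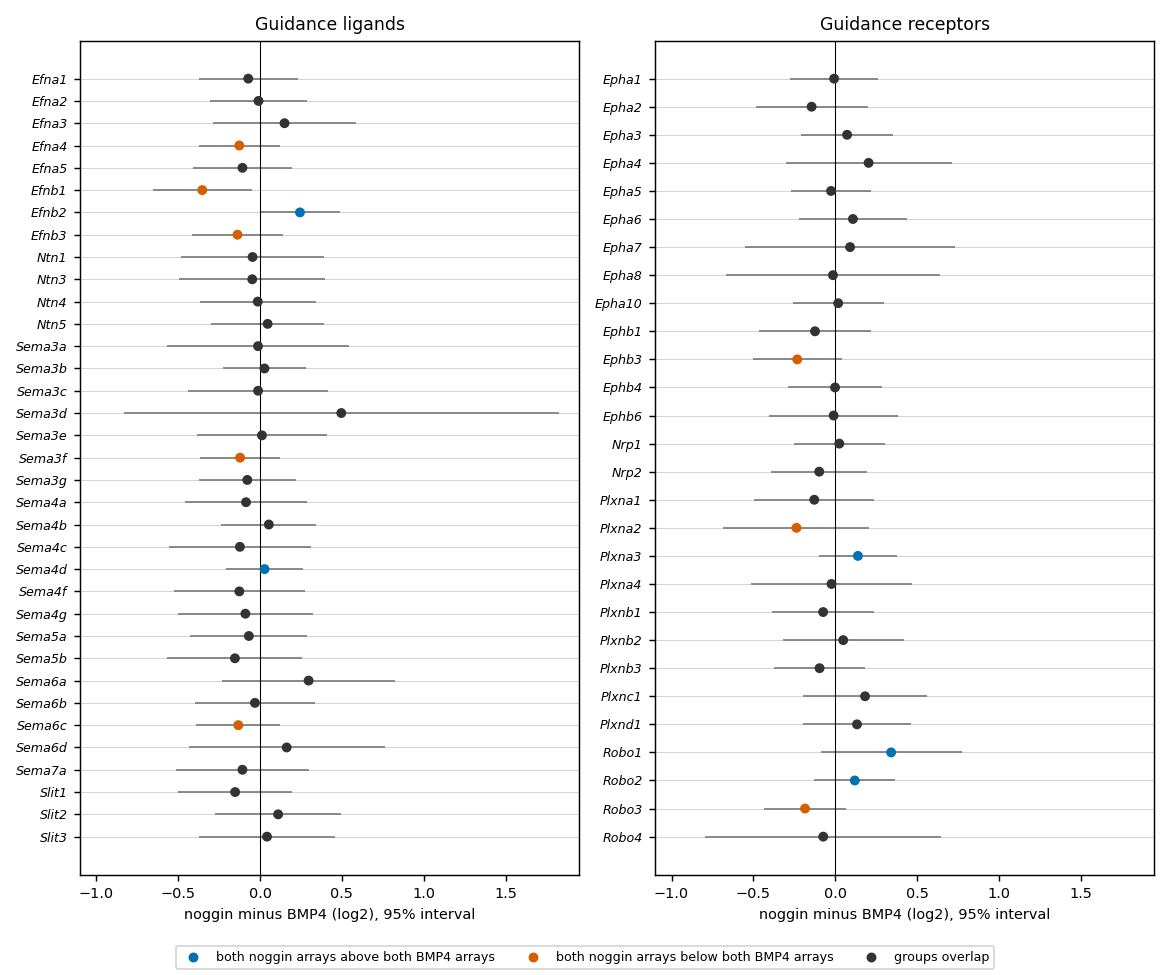
Difference of group means, noggin minus BMP4 on the log2 scale (horizontal axis), with the 95% interval from limma, for the 35 ligands (left) and 28 receptors (right). Blue marks 5 genes with both noggin arrays above both BMP4 arrays, orange 8 genes with both below, and every interval but that of Sema3d lies between -1 and 1.

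The B-class ephrins held the genes with the smallest p, and they differed in opposite directions. Efnb1, a transmembrane ligand of EphB receptors, was 7.78 and 7.58 in noggin replicates 1 and 2 and 8.03 in each BMP4 replicate. Both noggin arrays were below both BMP4 arrays, and the BMP4 pools were almost equal. The difference was -0.35 with a 95% interval from -0.65 to -0.053, which is 1.28-fold lower in noggin (limma, adjusted p = 0.865). Efnb2, the second transmembrane ligand, also a marker of arterial endothelium, was 8.81 and 8.76 in noggin and 8.57 and 8.51 in BMP4. Here both noggin arrays were higher, by 0.24 with an interval from 0.00060 to 0.49, a 1.18-fold difference (limma, adjusted p = 0.874). On leaving out 1 array the difference ranged from -0.45 to -0.25 for Efnb1 and from 0.21 to 0.28 for Efnb2. Efnb3, the third B-class ligand, was at or below 5.30 on all arrays, under the reference, and both noggin arrays were lower, with a difference of -0.14.

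Endothelial markers, which could accompany Efnb2, did not all differ in one direction. The noggin mean was higher for 5 of 7 endothelial markers and both noggin arrays were above both BMP4 arrays for 2 (28.6%, against 15.7% of all named genes), with a median difference of 0.11. The mean level of the 7 was 6.27 and 6.12 in noggin and 5.96 and 6.20 in BMP4, and Kdr, an endothelial VEGF receptor, was under the reference on every array. The part of endothelial RNA in the Efnb2 difference was not tested.

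Ephb3, a receptor of B-class ephrins, had the smallest p of the 13 Eph receptors. It was 6.66 and 6.64 in noggin and 6.81 and 6.96 in BMP4, so that both noggin arrays were lower. The difference was -0.23 with an interval from -0.50 to 0.040 (limma, adjusted p = 0.903), and it ranged from -0.31 to -0.16 with 1 array left out. Ephb4, known from venous endothelium, differed by only -0.0010, and Ephb6, whose kinase domain is inactive, by -0.0097. Ephb1 was under the reference on every array. The noggin mean was the lower one for all 4 B-class receptors, against 52.1% of all named genes, at a median of -0.067, and the groups were apart in Ephb3 alone. This shared direction was weak. Ephb4 (-0.069 to 0.067) and Ephb6 (-0.17 to 0.16) changed sign on leaving out 1 array, and the second probe set of Ephb1 differed by 0.063.

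**Figure D3:**
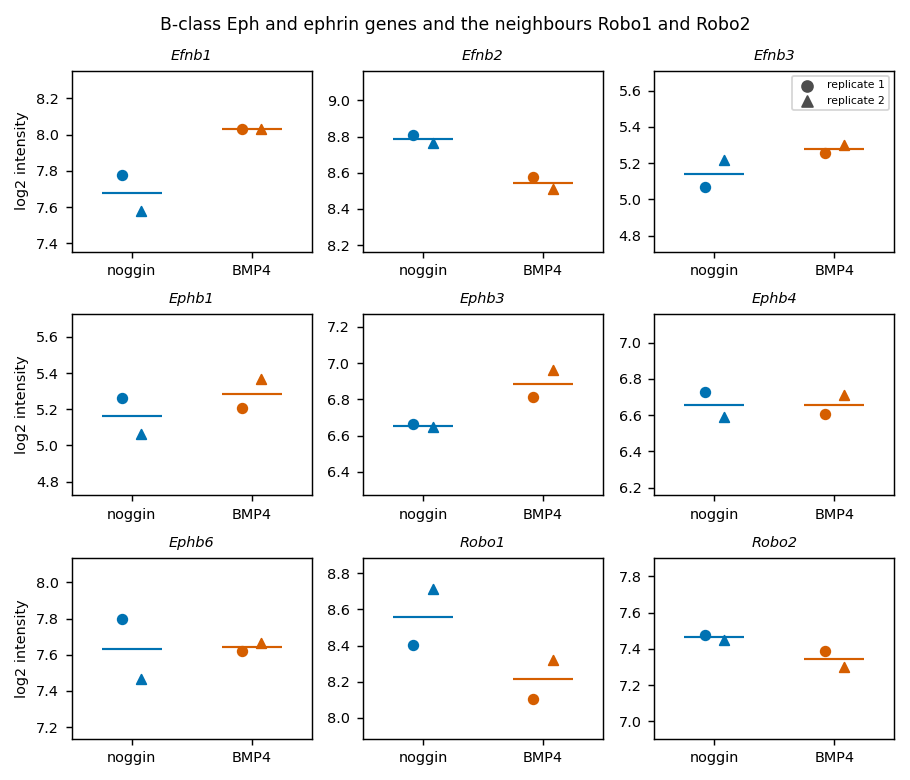
Log2 intensity (vertical axis, each panel spanning 1 log2 unit) of the 3 B-class ephrins, 4 B-class Eph receptors, Robo1 and Robo2 in the noggin (blue) and BMP4 (orange) arrays, with a line at each group's mean. Efnb1, Efnb3 and Ephb3 are lower and Efnb2, Robo1 and Robo2 higher in both noggin arrays, while Ephb4 and Ephb6 overlap.

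The promoter sequences of Efnb1, Efnb2 and Ephb3, the 3 genes of smallest p, are shown because the lines differ in a BMP ligand and its antagonist. BMP signals reach DNA through SMAD proteins, which bind the short SMAD box and GC-rich elements. The 250 bases before each gene's start are given 5′ to 3′ on the gene's strand, from RefSeq on GRCm38.p6. Capitals mark every CAGAC or its reverse complement GTCTG, and every GGCGCC, which reads the same on both strands.
Efnb1, chrX:99135811-99136060, plus strand: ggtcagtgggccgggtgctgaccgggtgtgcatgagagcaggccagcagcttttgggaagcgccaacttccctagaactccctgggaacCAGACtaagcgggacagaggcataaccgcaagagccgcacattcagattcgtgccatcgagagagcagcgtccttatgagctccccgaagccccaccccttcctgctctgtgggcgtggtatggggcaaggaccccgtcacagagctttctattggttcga
Efnb2, chr8:8661243-8661492, minus strand: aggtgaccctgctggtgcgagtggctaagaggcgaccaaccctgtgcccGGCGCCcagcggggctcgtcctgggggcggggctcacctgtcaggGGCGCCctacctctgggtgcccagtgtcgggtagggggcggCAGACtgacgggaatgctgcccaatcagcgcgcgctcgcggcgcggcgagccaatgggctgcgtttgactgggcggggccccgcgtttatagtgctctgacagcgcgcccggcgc
Ephb3, chr16:21204545-21204794, plus strand: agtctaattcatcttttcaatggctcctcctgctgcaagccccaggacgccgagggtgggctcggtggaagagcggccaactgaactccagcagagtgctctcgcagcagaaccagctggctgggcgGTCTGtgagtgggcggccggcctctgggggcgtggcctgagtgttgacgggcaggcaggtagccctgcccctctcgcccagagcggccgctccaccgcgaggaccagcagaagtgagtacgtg
Each of the 3 windows holds 1 SMAD box, 161 bases before the start in Efnb1, 115 in Efnb2 and 123 in Ephb3, counted to the motif's first base. Only the Efnb2 window also holds GGCGCC, in 2 copies. A SMAD box was in 11380 of 27025 windows of the same length, 1 per gene of the promoter table (42.1%), and in 28 of the 55 guidance genes that the table holds (50.9%). GGCGCC was in 9.54% of all windows and in 11 of the 55. The 55 also had more CG dinucleotides than the whole table, a median of 16 per window against 6, and the part of base composition in these shares was not tested. A match of letters is a description and says nothing of binding.

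The group means of the A-class ephrins were at most 0.15 apart. Efna5, a lipid-anchored ephrin, was 8.75 and 8.65 in noggin and 8.89 and 8.71 in BMP4, with overlapping groups. Its difference was -0.11 with an interval from -0.41 to 0.20 (limma, adjusted p = 0.966). Efna1, a ligand of EphA2, lay between 7.82 and 8.02 on all arrays and differed by -0.072, with an interval from -0.37 to 0.23. Efna4 was the one A-class ephrin whose groups did not overlap, at 7.15 and 7.13 in noggin and 7.22 and 7.31 in BMP4, a difference of -0.13. Efna3 differed by 0.15 with overlapping groups, and Efna2 was under the reference on every array. Efna1, Efna3 and Efna4 follow each other on chromosome 3 with 0 protein-coding genes between them, in the gene order of the GRCm38.p6 table.

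None of the 9 A-class Eph receptors had groups apart (0%, against 33.6% of all named genes). With 9 genes, 4 of them under the reference on every array, this count says little about the subfamily. Epha1, a receptor known from epithelia including skin, was 9.19 and 9.09 in noggin and 9.09 and 9.20 in BMP4. Its difference was -0.0066 with an interval from -0.28 to 0.26 (limma, adjusted p = 1), and its sign changed on leaving out 1 array. Epha2, the keratinocyte receptor named above, was 7.13 and 7.09 in noggin and 7.12 and 7.38 in BMP4. The BMP4 replicate 2 array alone stood higher, and the difference was -0.14 with an interval from -0.49 to 0.20 (limma, adjusted p = 0.954). Epha4, which binds ephrins of both classes, was 7.93 and 8.25 in noggin and 7.72 and 8.06 in BMP4, a difference of 0.20 with an interval from -0.30 to 0.71. Its gap between the pools of each line was larger than the difference. Epha10, a receptor with an inactive kinase domain, differed by 0.018, and Epha8 was above the reference on only 2 arrays. Epha3, Epha5, Epha6 and Epha7, receptors known mainly from the nervous system, were under it on all 4.

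Semaphorins had 20 members, and for 13 of them the noggin mean was the lower one, with a median over the family of -0.050. Both noggin arrays were above both BMP4 arrays for 1, Sema4d, and below for 2, Sema3f and Sema6c, together 15.0% of the family against 33.6% of all named genes. Sema6a, a transmembrane semaphorin that binds class A plexins, had the smallest p, with 8.29 and 7.99 in noggin and 7.65 and 8.04 in BMP4. Noggin replicate 1 was the highest and BMP4 replicate 1 the lowest, while the replicate 2 arrays were almost equal. The difference was 0.30 with an interval from -0.23 to 0.83 (limma, adjusted p = 0.946), and it ranged from 0.099 to 0.49 with 1 array left out. Sema6c, another transmembrane member, differed by -0.13, at 5.47 and 5.36 in noggin and 5.58 and 5.52 in BMP4, all under the reference. Sema6b and Sema6d, of the same class, differed by -0.032 and 0.16 with overlapping groups.

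Among the secreted class 3 semaphorins, Sema3d varied most of all 63 genes, with a gap between the pools of a line of 1.03 in noggin and 0.88 in BMP4. It was 6.67 and 7.70 in noggin and 6.25 and 7.13 in BMP4, a range of 1.45 over the 4 arrays, and it is described here because of that range. Noggin replicate 2 was the highest, BMP4 replicate 1 the lowest, and the groups overlapped. Its difference was 0.50 with an interval from -0.83 to 1.82 (limma, adjusted p = 0.963), and from -0.020 to 1.01 with 1 array left out. The mean level of 5 T cell markers was 7.19 and 7.46 in noggin and 6.70 and 7.09 in BMP4. That mean was also highest in noggin replicate 2 and lowest in BMP4 replicate 1, but of single genes only Cd3g and Ptprc were. Cd3e was highest in noggin replicate 1 (6.31), Thy1 in BMP4 replicate 2 (9.07), and Cd3d was lowest in BMP4 replicate 2 (5.32). The noggin mean was the higher one for each of the 5 T cell markers, and 4 were above the reference on all arrays. Fibroblast markers, 6 of 6 above the reference on all arrays, had a mean level of 8.17 and 8.20 in noggin and 7.94 and 8.39 in BMP4. The mean level of 6 Langerhans cell markers was 7.69 and 7.76 in noggin and 7.03 and 7.68 in BMP4. This mean had the same highest and lowest array as Sema3d, but not every gene did, H2-Eb1 being lowest in noggin replicate 1. The 6 genes differed in both directions, Cd74 by 1.35 and H2-Eb1 by -0.95, and 5 of the 6 were above the reference on all arrays. Other guidance genes, Robo1 and Epha4 among them, had the same highest and lowest array as Sema3d. The part of any of these cell types in the values of Sema3d or of such genes was not tested.

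The other class 3 semaphorins differed by less. Sema3a, the repellent of epidermal nerve fibres, was 6.26 and 6.16 in noggin and 5.97 and 6.48 in BMP4. Both BMP4 arrays lay outside the noggin pair, one below and one above it. The difference was -0.013, with an interval from -0.57 to 0.54 (limma, adjusted p = 1). Sema3c was 7.68 and 8.05 in noggin and 7.88 in each BMP4 array, a difference of -0.012 with an interval from -0.44 to 0.41. Sema3f, a ligand that signals through neuropilin-2, was 7.56 and 7.54 in noggin and 7.63 and 7.71 in BMP4, a difference of -0.12 with an interval from -0.37 to 0.12. Sema3b, Sema3e and Sema3g differed by 0.027, 0.011 and -0.078, and Sema3e passed the reference on 3 arrays.

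Transmembrane semaphorins of classes 4 and 5 and the lipid-anchored Sema7a differed by less than the gap between the pools of at least one line, except Sema4d. Sema4d, known as CD100 on T cells and a ligand of plexin-B1, varied least of the 20, with 7.08 and 7.09 in noggin and 7.04 and 7.07 in BMP4. The difference was 0.027 with an interval from -0.21 to 0.26, and it exceeded the gap between the pools of each line only narrowly in BMP4, where the gap was 0.027. Its second probe set differed by 0.14, at 6.94 and 6.90 in noggin and 6.76 and 6.81 in BMP4, with both noggin arrays higher again. Sema4a, Sema4b, Sema4c and Sema4g differed by -0.086, 0.053, -0.12 and -0.090, each with overlapping groups, and Sema4f was under the reference. Sema5a, Sema5b and Sema7a, the last a ligand of plexin-C1 and of an integrin, differed by -0.069, -0.15 and -0.11.

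Plexins and neuropilins, the receptors of these ligands, had a median difference of -0.023 over 11 genes. Plxna3, a receptor that pairs with neuropilins, had the smallest p, at 7.06 and 7.01 in noggin and 6.91 and 6.88 in BMP4. Both noggin arrays were higher, by 0.14 with an interval from -0.10 to 0.38 (limma, adjusted p = 0.942). Plxna2, a receptor of Sema6a, was 7.81 and 7.89 in noggin and 8.28 and 7.90 in BMP4. Both noggin arrays were lower, but BMP4 replicate 2 was only just above them. The difference was -0.24 (limma, adjusted p = 0.946), and without BMP4 replicate 1 it was -0.043. Plxna1 was 8.75 and 8.45 in noggin and 8.72 and 8.73 in BMP4, and its difference of -0.13 turned to 0.020 without noggin replicate 2. Plxnb2, a receptor of class 4 semaphorins, was 8.28 and 8.14 in noggin and 8.03 and 8.29 in BMP4, a difference of 0.049 with an interval from -0.32 to 0.42.

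The remaining receptors of this group overlapped between the lines. Plxnb1, the Sema4d receptor, differed by -0.074 and Plxna4 by -0.023. The neuropilins Nrp1 and Nrp2, which are also co-receptors of VEGF, differed by 0.025 and -0.098, with intervals from -0.25 to 0.30 and from -0.39 to 0.20. Plxnd1, the Sema3e receptor of endothelium, and Plxnc1 passed the reference on only 1 array each and differed by 0.13 and 0.18. Plxnb3 was under it on all arrays.

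No netrin had group means more than 0.05 apart, but the intervals were wider. They ran from -0.49 to 0.40 for Ntn3 and from -0.48 to 0.39 for Ntn1. Ntn4, a netrin of basement membranes that binds laminin, was 7.02 and 6.76 in noggin and 6.94 and 6.86 in BMP4. Its difference was -0.014 with an interval from -0.37 to 0.34 (limma, adjusted p = 1). Ntn1, the ligand of DCC, was 6.89 and 6.51 in noggin and 6.74 and 6.75 in BMP4, a difference of -0.046. Ntn3 was 5.77 and 5.37 in noggin and 5.64 and 5.60 in BMP4, above the reference on 1 array. Ntn5 was 5.80 and 5.94 in noggin and 5.71 and 5.94 in BMP4. For Ntn1, Ntn3 and Ntn4, both BMP4 arrays lay between the 2 noggin arrays. All 4 netrins changed sign on leaving out 1 array.

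Robo1, a receptor of Slits, had the second largest difference of the 13 genes whose groups did not overlap. It was 8.40 and 8.71 in noggin and 8.11 and 8.32 in BMP4, with both noggin arrays higher. The difference was 0.34, a 1.27-fold difference, with an interval from -0.088 to 0.77 (limma, adjusted p = 0.913), and it ranged from 0.19 to 0.50 with 1 array left out. The mean level of the 5 T cell markers had the same order of arrays as Robo1, though not every marker did. The part of T cells in the Robo1 values was not tested. Robo2 was 7.48 and 7.45 in noggin and 7.39 and 7.30 in BMP4, also higher in both noggin arrays, by 0.12 with an interval from -0.13 to 0.37. Robo1 and Robo2 follow each other on chromosome 16 with 0 protein-coding genes between them, and so do Robo4 and Robo3 on chromosome 9. Robo3, a receptor known from commissural axons, was 4.60 and 4.65 in noggin and 4.85 and 4.77 in BMP4, under the reference on every array, with a difference of -0.18. Robo4, a Robo of endothelium, ranged from 5.40 to 6.09 within noggin alone and differed by -0.073. Of the ligands, Slit3 was above the reference on all arrays and differed by 0.042, while Slit1 and Slit2 passed it on 3 arrays and 1 array and differed by -0.15 and 0.11, each with overlapping groups.

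**Figure D4:**
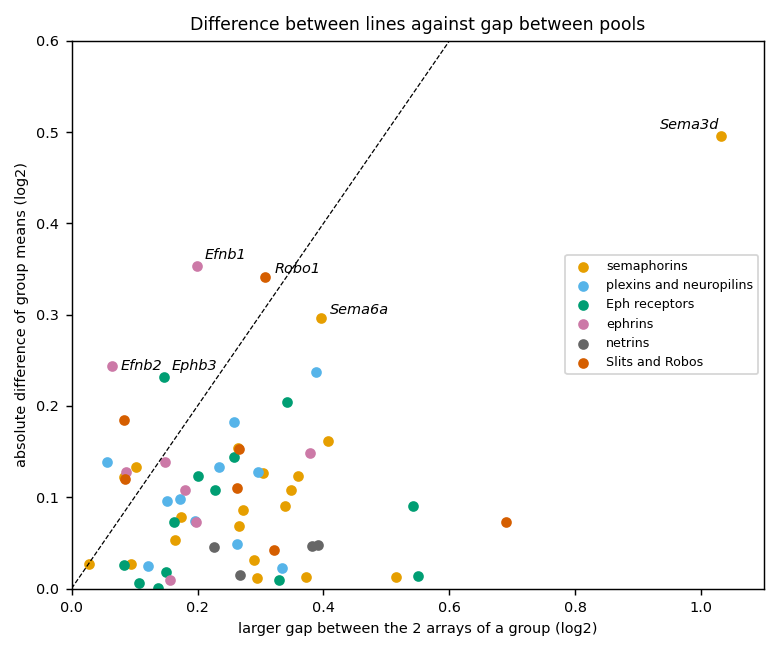
Absolute difference of group means (vertical axis, log2) against the larger of the 2 gaps between arrays of one line (horizontal axis, log2) for the 63 guidance genes, coloured by family, with a dashed line of equality. The 11 genes above the line include Efnb1, Efnb2, Ephb3 and Robo1, and Sema3d lies far to the right, below the line.

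Other genes of the guidance pathways were compared in 3 lists. Limma called 0 of the 11 measured of 12 netrin and RGM pathway genes, 0 of the 44 measured of 46 cytoplasmic effectors and 0 of 16 partner receptors and ligands, against 0% of all probe sets. Their median differences were -0.0062, -0.00090 and 0.024. Met, the HGF receptor that can associate with B-class plexins, had the smallest p of the 3 lists. It was 7.34 and 7.33 in noggin and 6.71 and 6.85 in BMP4, with both noggin arrays higher. The difference was 0.55, or 1.47-fold, with an interval from 0.28 to 0.82 (limma, adjusted p = 0.732). The VEGF receptor Flt1, named as the next of that list, differed by -0.29.

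Among cytoplasmic effectors, Abl1, a tyrosine kinase that acts downstream of Robos, was 6.84 and 7.0 in noggin and 7.29 and 7.30 in BMP4. Both noggin arrays were lower, with a difference of -0.38 and an interval from -0.66 to -0.098 (limma, adjusted p = 0.837). Rnd1, a small GTPase that binds plexins, was 5.57 and 5.66 in noggin and 6.01 and 5.90 in BMP4, with a difference of -0.34 (limma, adjusted p = 0.848). At an unadjusted p below 0.05 limma gave 3 of the 44 effectors, 1 of the 16 partners and 0 of the 11 netrin and RGM pathway genes (6.82%, 6.25% and 0%), against 4.28% of all named genes. The RGM ligand Rgma, which binds neogenin and is also a BMP co-receptor, was 6.94 and 6.72 in noggin and 6.50 and 6.57 in BMP4. Its difference was 0.29 with an interval from -0.026 to 0.61, and the netrin receptor Unc5b differed by -0.17.

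Markers of nerve and of other cells were measured beside these families. Of 5 neuronal markers, Tubb3 alone was above the reference on all arrays, at 9.89 and 9.37 in noggin and 10.8 and 10.5 in BMP4, and Nefl, Nefm and Snap25 were under it on every array. Both noggin arrays were lower for Tubb3, a beta-tubulin used as a neuronal marker, with a difference of -1.05 (limma, adjusted p = 0.765). Prph, Nefl, Nefm and Snap25 differed by only -0.090, 0.0018, 0.075 and -0.14. The cells that gave the Tubb3 signal are unknown here, and their part in its difference was not tested. All 3 measured Schwann cell and nerve markers, Sox10, Mbp and S100b, were above the reference on all arrays, with a median difference of -0.014. Their mean level was 6.77 and 6.41 in noggin and 6.46 and 6.60 in BMP4. Skeletal muscle markers had a mean level of 8.99 and 8.04 in noggin and 7.29 and 8.34 in BMP4, highest in noggin replicate 1 and lowest in BMP4 replicate 1, as Sema6a was. All 6 were above the reference on every array, and the noggin mean was higher for each. The groups were apart for 0 of them, against 33.6% of all named genes. The part of muscle, nerve or other cells in the guidance gene values was not tested.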

How the data were processed

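Labelled RNA from laser-captured epidermis was read on 4 arrays. Each deposited value is the log2 intensity of a probe set, made by the authors with RMA in Affymetrix Expression Console, per the submitters' processing notes, with no version or settings. RMA equalizes overall signal between arrays and compresses changes of dim probe sets. Array medians lay between 6.04 and 6.06. Detection calls, scan dates and batches were not used here, and precision is limited by the number of arrays.

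The fit was made over 35556 probe sets with limma 3.58.1 (R 4.3.3; lmFit, then eBayes) and a two-sided test of group, with no other term and with 2 residual and 2.08 prior degrees of freedom, and adjusted by Benjamini-Hochberg over all of them. An exact permutation test of 2 arrays against 2 cannot go below p = 0.333. Of the probe sets, 21789 had 1 gene symbol, 1621 several and 12146 none, and all 63 symbols matched the GRCm38.p6 table by Entrez identifier. Intervals are 95%.

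The members and lists were chosen with earlier results of these data known. Values on every array were given, in each of 6 role groups, for the 2 genes of smallest p and the 2 of highest mean, and for any gene past the threshold or with groups at least 0.5 apart and not overlapping. In each further pathway list the 2 genes of smallest p were named. Sema3d, Sema3a, Sema3f, Sema4d, Efna1, Efna4, Robo4, Tubb3 and the other genes given with values were added after their values were seen. The code was tested on simulated data. Same-numbered arrays did not pair, their deviations from the group means correlating at -0.12. Alternatives were a replicate block, a trend or robust prior, leaving out dim probe sets, 3 other scalings, the mean of all probe sets, other thresholds and references, and leaving out each array. Figures were drawn with matplotlib 3.10.9.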

Additional observations from a re-analysis of the deposited data

How the results depend on the processing

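Under every alternative run, 0 of the guidance genes passed the adjusted p of 0.05, and 0 passed 0.10; at an unadjusted p below 0.05 limma gave 0 to 2 of them. With the replicate number as a replicate block, limma also gave 0, the smallest adjusted p being 0.961. The block kept the count at an unadjusted p below 0.05 at 2 but with other genes, Robo1 (0.049) and Sema3d (0.021), while Efnb1 was at 0.057 and Efnb2 at 0.10. The median difference was -0.014 with the block and ranged from -0.021 to -0.014 under the other settings that kept all arrays, and from -0.065 to 0.026 on leaving out 1 array. With all arrays, the number of genes whose groups did not overlap was 13 to 17 of 63, and 12 of 59 with dim probe sets left out. It ranged from 32 to 48 with 1 array left out, where a single array against 2 separates more often by construction. The share over all named genes is given for the main fit alone (33.6%), so the other counts have no background beside them. The number above the reference was 29 at the 99th percentile of olfactory receptor genes, 57 with vomeronasal receptor genes and 44 to 46 on leaving out 1 array. Of the 63 differences, 39 changed sign on leaving out an array, and the share over all named genes is not given here. Among the 21 genes that the naming rule gave with full values these were Epha1 (-0.060 to 0.047), Ntn1 (-0.24 to 0.14), Ntn3 (-0.24 to 0.15), Ntn4 (-0.15 to 0.12), Ntn5 (-0.067 to 0.16), Plxna1 (-0.28 to 0.020), Plxnb2 (-0.082 to 0.18) and Sema3c (-0.20 to 0.17). Leaving out 1 of 2 arrays puts the other in place of the group mean. A sign can therefore change wherever a gap within a line is large beside the difference. Of genes added after their values were seen, for example Sema3d (-0.020 to 1.01), Sema3a (-0.27 to 0.24), Efna1 (-0.17 to 0.026) and Robo4 (-0.42 to 0.27) changed sign as well. With all 4 arrays kept, none of the 167 recomputed differences of the 21 genes changed sign. Most of them could not. The block, the other priors, leaving out dim probe sets and the mean of probe sets keep the difference of a gene with 1 probe set. Over all 63 genes, 1 changed sign under further quantile normalization, 4 under cyclic loess scaling and 1 with the mean of all probe sets. Detection is unknown for genes near or under the reference.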

Other observations

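Of the 63 guidance genes, 4 were read by more than 1 probe set, and the values printed above come from the one with the highest mean. The 2 probe sets of Sema6b, a transmembrane semaphorin, had identical values on all 4 arrays. The second probe set of Ephb1 differed by 0.063, where the first differed by -0.12. For Epha10 the first and second probe sets differed by 0.018 and -0.046.

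The 2 lines' arrays took unequal shares of the extremes. Noggin replicate 2 was the lowest of the 4 arrays for 30 of the 63 guidance genes (47.6%), against 32.6% of all named genes. BMP4 replicate 1 was the lowest for 20 (31.7%, against 25.9%), BMP4 replicate 2 for 6 (9.52%, against 20.3%) and noggin replicate 1 for 7 (11.1%, against 21.2%). Relative to each gene's mean, the median over the guidance genes was 0.028 in noggin replicate 1, -0.059 in noggin replicate 2, -0.045 in BMP4 replicate 1 and 0.055 in BMP4 replicate 2. These shares were not tested.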
